A study of Mus musculus with 6 samples.

Results

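Voltage-gated ion channel genes were examined for NOVA binding: 43 genes that encode calcium, sodium and potassium channel subunits, their auxiliary proteins and 1 hyperpolarization-activated channel, of 22380 protein-coding and 37310 annotated genes in all. Their clusters were chosen by position: a cluster belonged to a gene when 1 nt or more of it fell inside the annotated span of that gene and both had the same strand. By this rule 197 of 9988 NOVA1 clusters and 827 of 36591 NOVA2 clusters lay in these genes. The 43 genes fell into 15 calcium channel genes, 6 sodium channel genes, 21 potassium channel genes and Hcn2.

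The clusters came from HITS-CLIP, in which ultraviolet light crosslinks a protein to the RNA it touches, an antibody recovers the protein with its RNA, and the RNA fragments (tags) are sequenced and grouped into clusters along the genome. The cortex of wild-type CD1 mice at embryonic day 18.5 was used for both proteins, with 3 libraries precipitated for NOVA1 and 3 for NOVA2. Each deposited cluster had been found in at least 2 of the 3 libraries of its protein and held at least 10 tags, a minimum that the study calls a peak height, so that the tag count given here, pooled over libraries, may be the greatest depth of a cluster rather than all its tags. No value per library was therefore used, no spread between replicates could be given, no test between the proteins was run, and the intervals below are 95% Clopper-Pearson intervals that cover counting error only. The tags were not scaled to library size: over all clusters the tag counts of the NOVA2 list summed to 4.3 times those of the NOVA1 list, and it held 3.66 times as many clusters. The cortex was taken whole, so fewer cells that make a protein or an RNA and less of it per cell cannot be told apart.

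Voltage-gated channels are membrane proteins that open when the voltage across a neuron's membrane changes: sodium channels carry the rising phase of the action potential, potassium channels restore the resting voltage, and calcium channels turn an electrical signal into a chemical one, such as transmitter release. Many of their genes are very long and are spliced into several isoforms that gate differently. NOVA1 and NOVA2 are closely related RNA-binding proteins of neurons that bind clusters of the tetramer YCAY (Y is C or U) and act on alternative splicing and, in 3' UTRs, on the mature mRNA. The inward rectifiers among the 43 genes open without a voltage sensor. They and the calcium-activated Kcnn2 and Kcnn3 are kept here as channel partners in membrane excitability.

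Sequences under some of the highest clusters illustrate how YCAY was arranged in them. The windows were picked for YCAY, so they do not by themselves show what was bound. Below are windows of 30 nt from clusters the results turn on, each the stretch of its cluster with most YCAY, written 5' to 3' on the strand of the gene as DNA, with each YCAY in capitals, that is TCAT or its variants that end in C (TCAC), start with C (CCAT) or do both (CCAC). The coordinates are those of mm9 and the sequence was read from the NCBIM37 assembly, which is the same build. The set covers the highest intron clusters, a cluster over a skipped exon, the cluster with most motifs, the highest 3' UTR clusters of Cacna1h and Scn2a1, and a 3' UTR cluster of Scn3b with more NOVA1 than NOVA2 tags.
Kcnq3 intron 1, NOVA2, chr15:65999848-65999877 on the minus strand: TCATtaCCATCACtaCCATtttaTCACCAT
Kcnh7 intron 2, NOVA2, chr2:62896994-62897023 on the minus strand: caCCATCACCATCACCATCATccctgTCAT
Kcnj3 intron 3, NOVA2, chr2:55342684-55342713 on the plus strand: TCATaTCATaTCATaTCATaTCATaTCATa
Kcnd2 intron 1, NOVA2, chr6:21269258-21269287 on the plus strand: tatttaacaTCATttTCACatcTCATaaaa
Cacna1b beside the skipped exon, NOVA2, chr2:24498487-24498516 on the minus strand: acctgctgacTCACgCCATccaaCCACCAT
Cacna1i intron 4, NOVA2, chr15:80152271-80152300 on the plus strand: tattgTCATtgCCATCATCACCATCATCAT
Cacna1h 3' UTR, NOVA2, chr17:25511523-25511552 on the minus strand: TCACagtaccCCACccCCATCATtCCATcc
Scn2a1 3' UTR, NOVA2, chr2:65603477-65603506 on the plus strand: TCATCCACacatgacaatatcCCATCACac
Scn3b 3' UTR, NOVA1, chr9:40098310-40098339 on the plus strand: tcctCCACtctcaattaactgcacacCCAT
In Kcnj3 the motif TCAT recurred with 1 base between copies, in Cacna1i and Kcnh7 YCAY motifs ran into each other, and in Scn3b they stood apart. At least 1 YCAY was found on the strand of the gene in 196 of the 197 NOVA1 clusters (99.5%) and in 825 of the 827 NOVA2 clusters (99.8%), against 98.1% of all NOVA1 and 99.3% of all NOVA2 clusters. No such share was computed for flanking sequence, so these shares alone do not show enrichment.

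Most of the channel genes were bound by both proteins. Of the 43 genes, 34 held a NOVA1 cluster and 36 held a NOVA2 cluster, 33 held both and 6 held neither. Over all protein-coding genes, 12.7% held a NOVA1 cluster and 22.7% a NOVA2 cluster, but the channel genes were long: their median span was 222 kb, against 15.4 kb for protein-coding genes. Among the 31 channel genes of at least 100 kb, 28 held a NOVA1 cluster and 29 a NOVA2 cluster, where 40.9% and 66.6% of the 2401 protein-coding genes of that length did. Counted per length over all 43 genes, there were 1.6 NOVA1 and 6.71 NOVA2 clusters per 100 kb of gene, against 0.8 and 3.85 per 100 kb over all protein-coding genes of at least 100 kb. The 43 genes were chosen with earlier results of these data known, so these comparisons are not independent of that choice and do not extend to channel genes at large. No measure of RNA abundance was used, so the part of expression in these counts was not tested.

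NOVA2 clusters outnumbered NOVA1 clusters in 32 of the 37 bound genes, by 4.2 to 1 over all of them. The genes with most NOVA2 clusters were Kcnip4 with 102, Kcnd2 with 72 and Kcnq5 with 60, and those with most NOVA1 clusters were Kcnd2 with 26, Kcnip4 with 15, and Cacna1b and Scn2a1 with 11 each. Cacna1h, Cacna2d2, Kcnc1 and Kcnj6 held more NOVA1 than NOVA2 clusters, and Cacnb3 held 1 of each. The 6 genes without a cluster were Cacnb1, Kcna1, Kcna2, Kcnn3, Kcnj9 and Hcn2, of which Kcnn3 spanned 147.6 kb and the longest of the others, Cacnb1, 21.53 kb.

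**Figure D1:**
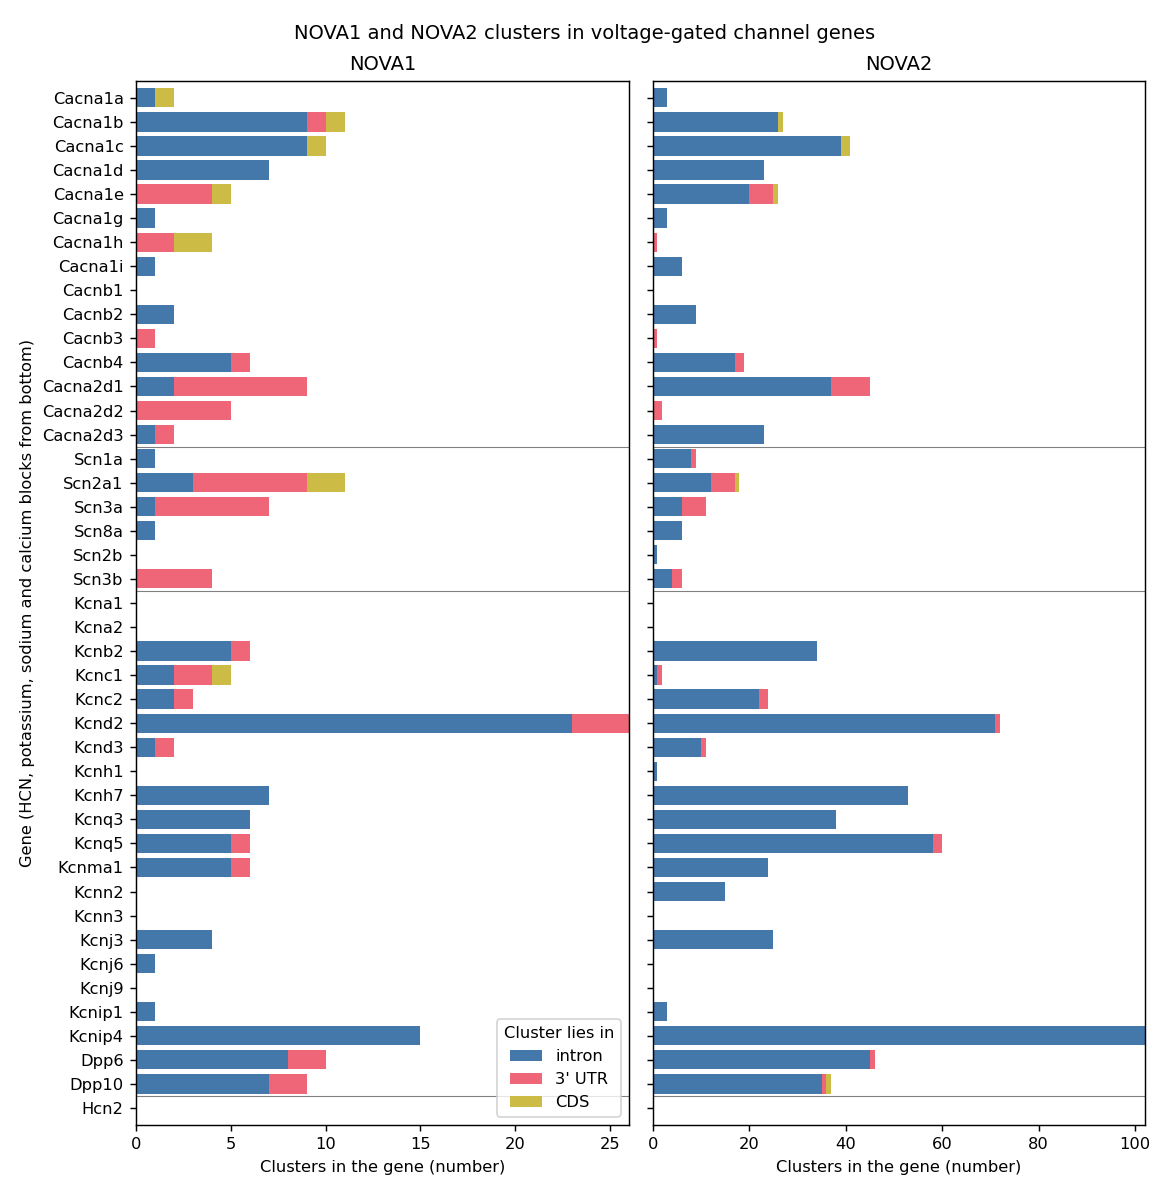
Number of NOVA1 (left) and NOVA2 (right) clusters in each of the 43 genes, with the horizontal axes on different scales; bar colours give the part of the gene the cluster lies in, and grey lines separate the calcium, sodium, potassium and HCN genes. Kcnd2 (26) leads for NOVA1 and Kcnip4 (102) for NOVA2, and red 3' UTR segments take a larger part of the NOVA1 bars.

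Where the clusters lay differed between the lists and between the channel classes. In the 43 genes 136 of 197 NOVA1 clusters (69.0%, interval 62.1 to 75.4) and 780 of 827 NOVA2 clusters (94.3%, interval 92.5 to 95.8) lay in introns, against 45.4% and 83.8% of all clusters in genes. The 3' UTRs held 52 NOVA1 clusters (26.4%) and 41 NOVA2 clusters (4.96%), against 42.5% and 13.6% of all clusters in genes. Coding sequence held 9 NOVA1 and 6 NOVA2 clusters, and no channel cluster was assigned to a 5' UTR or a noncoding exon.

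Sodium channel genes had the smallest intron share and potassium channel genes the largest. For NOVA1, introns held 6 of 24 clusters in sodium channel genes (25%, interval 9.77 to 46.7), 38 of 66 in calcium channel genes (57.6%, interval 44.8 to 69.7) and 92 of 107 in potassium channel genes (86.0%, interval 77.9 to 91.9). For NOVA2 the shares were 37 of 51 (72.5%, interval 58.3 to 84.1), 206 of 229 (90.0%, interval 85.3 to 93.5) and 537 of 547 (98.2%, interval 96.7 to 99.1). Both lists thus ordered the classes alike. The intervals do not test a difference between classes, since clusters bunch: 37.1% of NOVA1 and 45.5% of NOVA2 channel clusters had a neighbouring cluster within 1 kb. Of the 24 NOVA1 clusters in sodium channel genes, 11 lay in Scn2a1 and 7 in Scn3a. The sodium channel genes spanned 559.66 kb and the potassium channel genes 7666.5 kb, and the part of intron length in these shares was not tested. By tags, 3' UTRs took 87.1% of the NOVA1 tags and 44.9% of the NOVA2 tags in sodium channel genes, and 11.4% and 1.02% in potassium channel genes.

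The pore-forming subunits of high-voltage-activated calcium channels, Cacna1a to Cacna1e, were all bound by both proteins. Cacna1b, the pore of the N-type channel that triggers transmitter release, held 11 NOVA1 and 27 NOVA2 clusters in 159.3 kb, or 6.91 and 17.0 per 100 kb. Its highest NOVA2 cluster, at chr2:24498293-24498760 in intron 33, held 353 tags and overlapped NOVA1 clusters of 29 and 15 tags. A cluster of 274 NOVA2 and 45 NOVA1 tags lay in intron 38 of Cacna1b, and a second pair in the same intron held 143 and 31 tags. Cacna1c, the pore of an L-type channel, held 10 NOVA1 and 41 NOVA2 clusters, of which 6 and 26 lay in intron 3, which is 272 kb long. The highest of these pairs in Cacna1c held 180 NOVA2 and 62 NOVA1 tags, and the highest NOVA2 cluster of the gene, with 188 tags against 22 for NOVA1, lay in intron 23. Cacna1d, the pore of another L-type channel, held 7 NOVA1 and 23 NOVA2 clusters, all in introns, and every NOVA1 cluster overlapped a NOVA2 cluster.

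Cacna1a and Cacna1e differed from these. Cacna1a, which makes the P/Q-type pore, is 251.8 kb long but held 2 NOVA1 and 3 NOVA2 clusters, the highest pair having 23 and 53 tags in intron 24. Cacna1e, which makes the R-type pore, held 20 NOVA2 clusters in introns but no NOVA1 cluster there. Its 5 NOVA1 clusters lay in the 3' UTR and, in 1 case, in coding exon 28, and the highest of them held 25 NOVA1 tags against 91 NOVA2 tags. The highest intron cluster of Cacna1e held 54 NOVA2 tags.

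The low-voltage-activated (T-type) pores split by the place of binding. Cacna1h was bound in exons: its 3' UTR held a cluster of 219 NOVA2 tags at chr17:25511329-25511654 that overlapped NOVA1 clusters of 80 and 11 tags, and 2 NOVA1 clusters in coding exons 8 and 35 had no NOVA2 partner. In Cacna1g and Cacna1i every cluster was intronic. The leading NOVA2 cluster of Cacna1i held 145 tags over 367 nt and 61 YCAY motifs, the most of any channel cluster, where the overlapping NOVA1 cluster held 10 tags.

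Among the auxiliary calcium channel subunits, which set the surface level and gating of the pore, binding ranged from none in Cacnb1 to 45 NOVA2 clusters in Cacna2d1. Cacnb4 held 6 NOVA1 and 19 NOVA2 clusters, mostly in intron 2, and Cacnb2 held 2 and 9, all intronic. Cacnb3, which spans 12.31 kb, held a 3' UTR cluster of 32 NOVA1 and 36 NOVA2 tags. Cacna2d1, an alpha2delta subunit, held 9 NOVA1 clusters, of which 7 lay in annotated 3' UTRs, while 37 of its 45 NOVA2 clusters were intronic. Its highest NOVA2 cluster, 233 tags in intron 10 of Cacna2d1, overlapped 10 NOVA1 tags, and its highest NOVA1 cluster, 60 tags in the last exon, overlapped NOVA2 clusters of 157 and 32 tags. Cacna2d2 was bound in the 3' UTR alone, with 5 NOVA1 and 2 NOVA2 clusters, and the highest pair there held 32 NOVA1 and 21 NOVA2 tags. Cacna2d3 held 23 NOVA2 clusters, all intronic, and 2 NOVA1 clusters. Over the 3 alpha2delta genes, 13 of 16 NOVA1 clusters but 10 of 70 NOVA2 clusters lay in 3' UTRs.

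Of the 4 sodium channel pores, 2 held NOVA1 clusters and 3 held NOVA2 clusters in the 3' UTR, and Scn2a1 and Scn3a held both. Scn2a1, a pore of excitatory neurons, carried the highest NOVA1 cluster of all 43 genes, 252 tags in its 3' UTR at chr2:65603421-65603888. This cluster overlapped a NOVA2 cluster of 391 tags. A 3' UTR pair of Scn2a1 further downstream held 55 NOVA1 and 50 NOVA2 tags, and a NOVA1 cluster of 37 tags beyond it had no NOVA2 partner. Of the 4 one to one pairs in the 3' UTR of Scn2a1 the NOVA1 count was higher in 2 and the NOVA2 count in 2. In the introns of Scn2a1 the leading pairs held 145 NOVA2 against 20 NOVA1 tags in intron 6 and 92 against 11 in intron 3. Scn3a, a pore used mostly before birth, held 6 NOVA1 and 5 NOVA2 clusters in its 3' UTR, led by a pair of 92 NOVA1 and 89 NOVA2 tags, whereas its highest intron pair held 14 NOVA1 and 51 NOVA2 tags.

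Scn1a and Scn8a, pores that rise later in development, held 1 NOVA1 cluster each, both intronic, with 16 and 12 tags against 55 and 64 NOVA2 tags. Of their NOVA2 clusters, 9 in Scn1a and 6 in Scn8a, 1 in Scn1a lay in the 3' UTR, with 31 tags and no NOVA1 partner. Scn3b, an auxiliary beta subunit, had the highest density of NOVA2 clusters of the 43 genes, 26.8 per 100 kb, from 6 clusters in 22.4 kb. All 4 NOVA1 clusters of Scn3b lay in the 3' UTR and 2 of them overlapped NOVA2 clusters, with 47 NOVA1 against 10 NOVA2 tags and 46 against 25. The highest NOVA2 cluster of Scn3b, 48 tags in intron 2, had no NOVA1 partner. Scn2b held 1 NOVA2 cluster, at the lower limit of 10 tags.

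**Figure D2:**
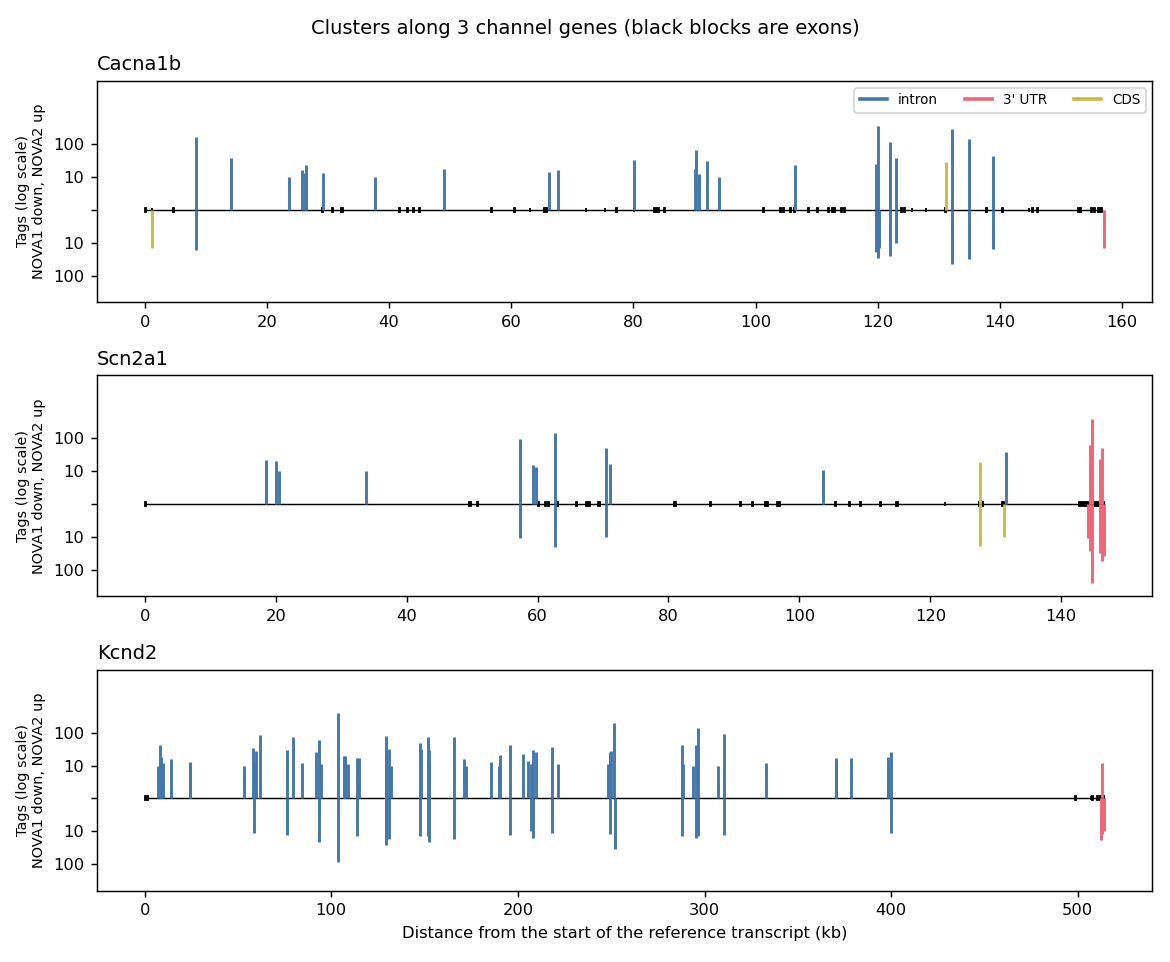
Clusters along Cacna1b, Scn2a1 and Kcnd2, by distance from the start of the reference transcript in kb; vertical lines give the tags of each cluster on a log scale, NOVA2 upward and NOVA1 downward, coloured by the part of the gene, and black blocks are exons. In Scn2a1 the NOVA1 lines are longest in the 3' UTR (252 tags), whereas in Kcnd2 both proteins lie mostly in intron 1.

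The voltage-gated potassium channel pores were bound mostly deep inside a long intron. Kcnd2, the Kv4 pore of the transient dendritic current, held 26 NOVA1 and 72 NOVA2 clusters, and 23 and 71 of these lay in intron 1, which is 497 kb long. Its highest pair held 83 NOVA1 and 385 NOVA2 tags, and 25 of its 26 NOVA1 clusters overlapped a NOVA2 cluster. Kcnd3, the other Kv4 pore in the list, held 2 NOVA1 and 11 NOVA2 clusters in 221.7 kb, or 0.902 and 4.96 per 100 kb, against 5.06 and 14.0 per 100 kb in Kcnd2.

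Kcnq3 and Kcnq5 make subunits of the M-current, a slow potassium current that damps repeated firing. Intron 1 of Kcnq3 carried the highest NOVA2 cluster of all 43 genes, 1077 tags at chr15:65999550-66000056 with 42 YCAY motifs. It overlapped NOVA1 clusters of 122 and 13 tags, the former being the second highest NOVA1 cluster among the channel genes. Kcnq5 held 60 NOVA2 clusters, 51 of them in intron 1, and 6 NOVA1 clusters, and a NOVA2 cluster of 136 tags in its intron 1 was the highest among the channel genes without a NOVA1 partner. Kcnh7, an ERG-type channel, held 53 NOVA2 clusters, 41 of them in intron 2, and its highest held 447 tags over a NOVA1 cluster of 79 tags and 359 tags over NOVA1 clusters of 33 and 10 tags. Kcnh1, in contrast, held 1 NOVA2 cluster of 17 tags in 319.4 kb.

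The remaining pores of delayed-rectifier type were bound less evenly. Kcnb2 held 34 NOVA2 clusters, all in intron 1, and Kcnc2 held 24, of which 17 lay in intron 2. Kcnc1, a fast-firing channel, held 5 NOVA1 and 2 NOVA2 clusters. Its pairs were 22 NOVA1 against 79 NOVA2 tags in an intron and 23 against 41 in the 3' UTR of a shorter annotated transcript. A further NOVA1 cluster of 37 tags in intron 3 of Kcnc1 was 36 nt wide, held 0 YCAY motifs and had no NOVA2 partner. Kcna1 and Kcna2, compact Kv1 genes, held no cluster inside their annotated spans.

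Of the calcium-activated channels, Kcnma1, the large-conductance pore, held 6 NOVA1 and 24 NOVA2 clusters, led by a pair of 18 and 156 tags in intron 17. Kcnn2, a small-conductance pore, held 15 NOVA2 clusters and no NOVA1 cluster, the highest with 62 tags, and Kcnn3 held none of either. Of the inward rectifiers, Kcnj3, a G-protein-gated subunit, held 25 NOVA2 clusters, all in intron 3, with 415 and 291 tags in the highest. The NOVA1 clusters under these held 36 tags in the first case and 25 and 20 in the second. Its partner subunit genes Kcnj6 and Kcnj9 held 1 NOVA1 cluster of 10 tags and no cluster, respectively.

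The auxiliary subunits of Kv4 channels held many clusters over very long genes. Kcnip4, a calcium-binding partner of Kv4, spans 1135 kb, and all its 15 NOVA1 and 102 NOVA2 clusters lay in intron 1, which is 1010 kb long. Its highest pair held 22 NOVA1 and 166 NOVA2 tags. Kcnip1, of the same family, held 1 NOVA1 and 3 NOVA2 clusters in 363.8 kb. Dpp6 and Dpp10, transmembrane partners of Kv4, held 10 and 9 NOVA1 and 46 and 37 NOVA2 clusters, with leading NOVA2 clusters of 184 tags in intron 3 of Dpp6 and 69 tags in intron 3 of Dpp10. In Dpp10 a 3' UTR pair held more NOVA1 (32) than NOVA2 (10) tags. Per length, the Kv4 pore gene Kcnd2 held 14.0 NOVA2 clusters per 100 kb, Kcnip4 8.99, Dpp10 5.19 and Dpp6 5.05.

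Much of this binding, by number of clusters, lay in long introns. In potassium channel genes 432 of 537 intronic NOVA2 clusters (80.4%) and 79 of 92 NOVA1 clusters (85.9%) lay in the longest intron of their gene, and these introns made up 65.3% of the intron length. In calcium channel genes the longest introns held 45.6% of the NOVA2 clusters and 38.6% of the intron length, and in sodium channel genes 27.0% and 35.9%.

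NOVA1 clusters in channel introns nearly always lay on NOVA2 clusters of the full list, as NOVA1 intron clusters did over all genes. In the channel genes 166 of 197 NOVA1 clusters were shared, that is they overlapped a cluster of the other list by 1 nt or more (84.3%, interval 78.4 to 89.1), where 80.1% of all NOVA1 clusters were. For NOVA2, 164 of 827 were shared (19.8%, interval 17.2 to 22.7), where 22.1% of all were. With the NOVA2 list at 25 tags or more, the shares in channel genes were 66.5% for NOVA1 and 43.5% for NOVA2. With that list reduced to its highest clusters, as many as NOVA1 has, they were 60.9% and 53.5%. In introns 129 of 136 NOVA1 clusters (94.9%) were shared, against 34 of 52 (65.4%) in 3' UTRs and 3 of 9 in coding sequence. Over all genes the NOVA1 shares were 95.5%, 73.9% and 38.1%. Conversely, 129 of 780 NOVA2 intron clusters (16.5%) but 32 of 41 NOVA2 3' UTR clusters (78.0%) were shared, against 14.1% and 64.5% over all genes. NOVA2 intron clusters that overlapped a NOVA1 cluster had a median of 58 tags and the other 651 a median of 16, so sharing moved with tag number, and its part in the shares was not tested.

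There were 31 NOVA1 clusters without a NOVA2 partner, 18 in 3' UTRs, 6 in coding sequence and 7 in introns. They made up 34.6% of the 3' UTR, 66.7% of the coding and 5.15% of the intron clusters of NOVA1 in channel genes, against 26.1%, 61.9% and 4.5% over all genes. In 3' UTRs they reached 37 tags in Scn2a1, 25 in Scn3b, 25 in Cacna2d3 and 20 in Dpp6, and Cacna2d2 held 3 of them, with 10 to 14 tags. The others, each with at most 17 tags, lay in Cacna1b, Cacna1e, Dpp10, Kcnb2, Kcnc1, Kcnd2, Kcnma1, Kcnq5, Scn2a1, Scn3a and Scn3b. In coding sequence they lay in exon 26 of Cacna1a (10 tags), exon 2 of Cacna1b (15 tags), exons 8 and 35 of Cacna1h (11 and 17 tags), exon 2 of Kcnc1 (10 tags) and exon 26 of Scn2a1 (10 tags). The shared coding clusters of NOVA1 held 14 tags in exon 20 of Cacna1c, 14 in exon 28 of Cacna1e and 19 in exon 24 of Scn2a1, against 23, 19 and 19 NOVA2 tags. In introns the 7 were the 36-nt cluster of Kcnc1, a cluster of 27 tags and 1 YCAY motif in intron 3 of Cacna1c, and clusters of 10 to 12 tags in Dpp10, Kcnb2, Kcnip1, Kcnip4 and Kcnj6.

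Of the 663 NOVA2 clusters without a NOVA1 partner, 651 lay in introns, 9 in 3' UTRs and 3 in coding sequence, and the unpartnered share of intron clusters was 83.5%, against 85.9% over all genes. The highest in calcium channel genes held 133 and 91 tags in intron 3 of Cacna2d1 and 94 tags in intron 3 of Cacna1c. In potassium channel genes the 136 tags of Kcnq5 were followed by 93 in intron 3 of Kcnj3 and 92 in intron 2 of Kcnh7. In sodium channel genes the highest were lower, with 48 tags in Scn3b, 37 in intron 26 of Scn2a1 and 35 in intron 24 of Scn3a.

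Within pairs the balance of tags differed between introns and 3' UTRs. There were 145 pairs in which a NOVA1 and a NOVA2 cluster overlapped each other and no other cluster. For the 115 intron pairs the log2 ratio, NOVA1 tags over NOVA2 tags, had a median of -1.85, with quartiles of -2.53 and -1.33, and the NOVA2 count was higher in 114 of them and equal in 1. The 27 3' UTR pairs had a median log2 ratio of -0.13, with quartiles of -0.73 and 0.48, and the NOVA1 count was higher in 13 and the NOVA2 count in 14. Over all pairs in genes the medians were -2.04 for 3452 intron pairs and -0.4 for 2146 3' UTR pairs, and the tags of the whole lists stood at a log2 ratio of -2.1. The intron pairs of channel genes thus lay near the ratio of the whole lists and their 3' UTR pairs above it, as in other genes. That ratio is not one of sequencing depth. The unique tags that the study reports favour NOVA2 less than the whole lists do, so against them all pairs would stand lower. A pair needs at least 10 tags in each list, so NOVA2 clusters without a NOVA1 partner, 651 in channel introns, do not enter. The ratio of the whole lists sums all clusters, so it is an unlike measure, and the balance over all intron tags is not given by the pairs. Sodium channel genes had a median log2 ratio of -2.37 over 6 intron pairs and 0.06 over 11 3' UTR pairs, calcium channel genes -2.19 over 34 and -0.17 over 11, and potassium channel genes -1.75 over 75 and -0.83 over 5.

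**Figure D3:**
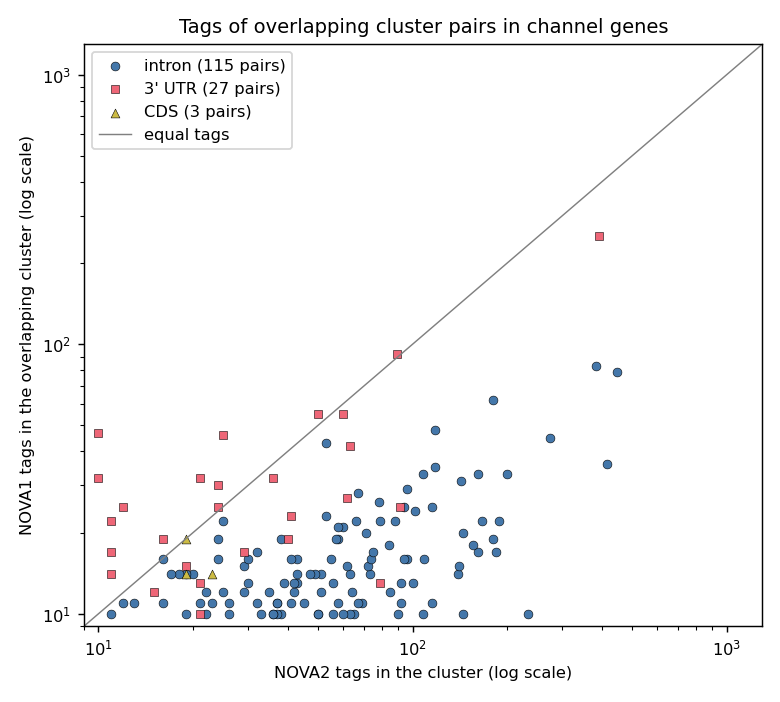
NOVA1 against NOVA2 tags for the 145 pairs of overlapping clusters, both axes on a log scale, with symbols for introns, 3' UTRs and coding sequence and a line of equal tags. Intron pairs lie below the line (114 of 115), and 3' UTR pairs lie on both sides of it (13 above and 14 below).

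Few intron clusters lay beside exons, where NOVA is known to act on splicing. Within 500 nt of an exon on the same strand, or touching it, lay 11 of 136 NOVA1 intron clusters (8.09%, interval 4.11 to 14.0) and 43 of 780 NOVA2 intron clusters (5.51%, interval 4.02 to 7.35), against 12.7% and 10.4% of all intron clusters. The median distance of a NOVA2 intron cluster from the nearest exon was 35229 nt, against 9714 nt over all genes. Sodium channel genes stood apart, with 16 of 37 NOVA2 intron clusters near an exon (43.2%, interval 27.1 to 60.5), against 16 of 206 in calcium channel genes (7.77%, interval 4.5 to 12.3) and 11 of 537 in potassium channel genes (2.05%, interval 1.03 to 3.64). Of these 37 sodium channel clusters, 4 lay in intron 24 of Scn3a, which is 1.04 kb long, and 4 in intron 2 of Scn3b, 2.14 kb long. In an intron as short as that of Scn3a, nearly every position is within 500 nt of an exon. The longest introns held 35.9% of intron length in sodium, 38.6% in calcium and 65.3% in potassium channel genes. The genes of these classes spanned 559.66 kb (6 genes), 4088.3 kb (15 genes) and 7666.5 kb (21 genes). The part of intron length in these distances was not tested.

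**Figure D4:**
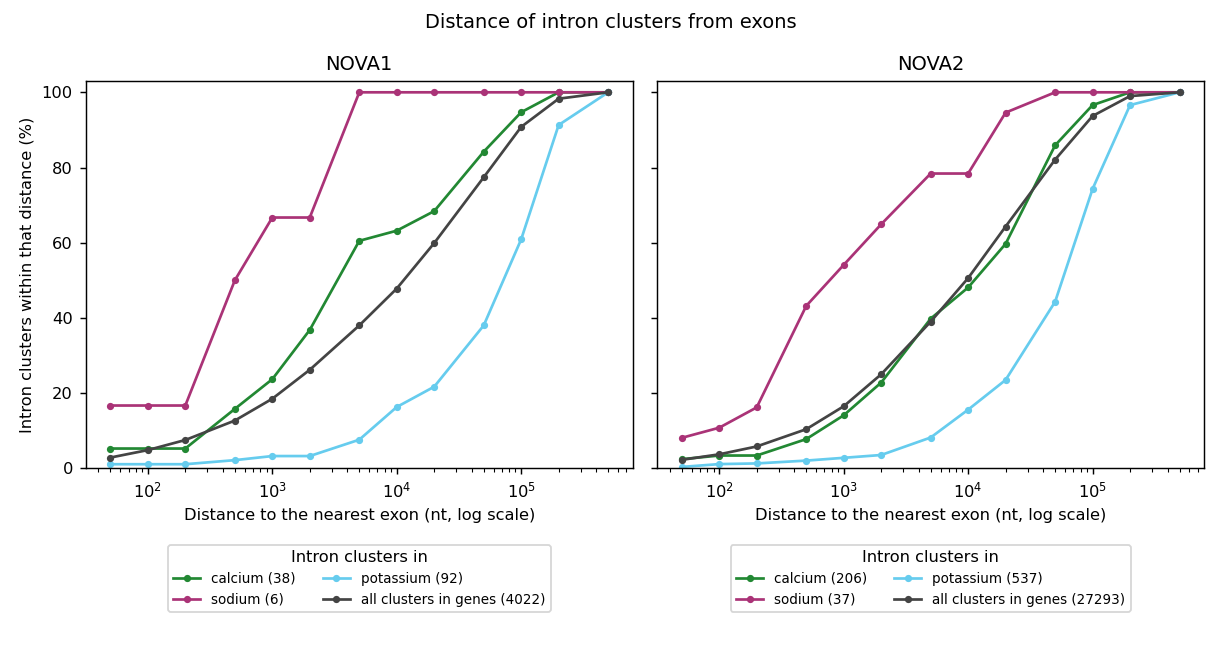
Share of intron clusters (percent) that lie within a given distance (nt, log scale) of the nearest exon on the same strand, for NOVA1 (left) and NOVA2 (right), with the number of intron clusters in brackets. At 500 nt the NOVA2 curves stand at 43.2% for sodium, 7.77% for calcium and 2.05% for potassium channel genes and at 10.4% for all genes.

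Some clusters lay within 500 nt of an exon that is skipped in some annotated transcripts. The rule does not tell an exon that is simply left out from one that another exon replaces, and both are called skipped here. For NOVA2 there were 13 such intron clusters in 6 genes, 9 of them in 4 calcium channel genes, and for NOVA1 4 in 2 genes. Calcium channel genes held 33 of the 62 skipped exons annotated in the set. In Cacna1b the cluster of 353 NOVA2 tags shown above covered a skipped exon of 6 nt at chr2:24498373-24498378, with NOVA1 clusters of 15 tags on the exon, 29 tags at 42 nt upstream and 19 tags at 480 nt upstream, and a further NOVA2 cluster of 24 tags at 481 nt upstream. Also in Cacna1b, NOVA2 clusters of 32 tags touched the skipped exon 19 of 63 nt and of 22 tags lay 33 nt downstream of the skipped exon 26 of 12 nt. In Cacna1c a NOVA2 cluster of 37 tags touched the skipped exon 30 of 84 nt, another of 15 tags lay 245 nt downstream of it, and 11 tags lay 68 nt upstream of the skipped exon 31 of 33 nt. A coding sequence cluster of Cacna1c, of 13 NOVA2 tags, lay on the skipped exon 21 of 60 nt. In Cacna1d 30 NOVA2 tags lay 240 nt downstream of the skipped exon 32 of 45 nt. In Cacna2d1 clusters of 65 NOVA2 and 10 NOVA1 tags lay 300 and 278 nt upstream of the skipped exon 19 of 57 nt.

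Outside the calcium channel genes, skipped exons were near clusters in Kcnma1 and Scn8a. In Kcnma1 NOVA2 clusters of 67 and 13 tags lay 447 nt downstream and 61 nt upstream of a skipped exon of 12 nt, and 11 tags lay 372 nt upstream of another of 9 nt. In Scn8a 13 NOVA2 tags lay 312 nt downstream of the skipped exon 4 of 92 nt. No inclusion level of any of these exons was analysed here.

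The clusters were denser in YCAY than the sequence around them. YCAY stood at 46.6 per 1000 positions in the NOVA1 clusters and 18.2 in flanks 200 to 500 nt away, a ratio of 2.56, and at 44.7 and 18.7 for NOVA2, a ratio of 2.4. Over all clusters the ratios were 2.02 and 2.29. In channel introns the ratios were 3.08 for NOVA1 and 2.43 for NOVA2, against 2.81 and 2.41 over all genes, and in channel 3' UTRs they were 1.67 and 1.8, against 1.54 and 1.71. The few coding clusters, 9 and 6, had ratios of 2.45 and 3.06, against 1.69 and 2.49. TCAT was the commonest form, with 42.4% of the motifs in NOVA1 and 42.7% in NOVA2 clusters, followed by CCAT (26.6% and 25.8%), TCAC (19.9% and 20.2%) and CCAC (11.1% and 11.3%). NOVA2 intron clusters shared with NOVA1 held 51.9 YCAY per 1000 positions and those not shared 43.7, against 48.6 and 44.0 over all genes.

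**Figure D5:**
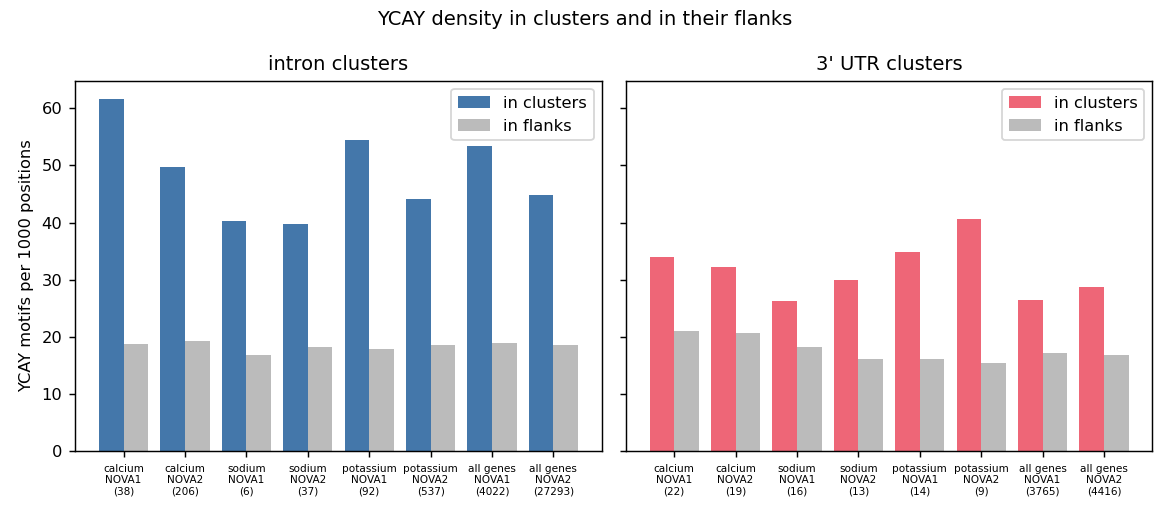
YCAY motifs per 1000 positions in clusters (coloured) and in their flanks 200 to 500 nt away (grey), for intron clusters (left) and 3' UTR clusters (right) of each channel class and of all genes, with the number of clusters in brackets. Intron clusters of calcium channel genes reach 61.7 for NOVA1 and 49.7 for NOVA2, and all flanks lie between 15.5 and 21.0.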

How the data were processed

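The authors irradiated cortex, precipitated NOVA1 or NOVA2, aligned reads to mm9 (Novoalign per the labels) and deposited 1 list of clusters per protein, with the tag count of each cluster pooled over 3 libraries. The lists hold clusters from at least 2 libraries with at least 10 tags. The study calls the minimum of 10 tags a peak height, so the deposited count may be the highest depth of a cluster rather than all its tags. Counts were not rescaled, and depth per library is not in the lists.

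Clusters were assigned to genes with GENCODE vM1 on NCBIM37 by an overlap of at least 1 nt on the same strand. The class was that of most nucleotides of the cluster, ties and overlapping transcripts going to coding sequence, 3' UTR, 5' UTR, noncoding exon and intron in that order. Scn8a and Kcnb2 have 2 annotation entries each, and both were used. Introns and exons were numbered on 1 reference transcript per gene (the coding transcript with the longest coding sequence), and a skipped exon was an internal exon that another annotated coding transcript of the gene leaves out. Exons used in place of one another thus count as skipped. YCAY was counted on the strand of the gene, overlapping copies included. The members, gene classes and lists were chosen with earlier results of these data known. Every member was named, and clusters were described by rule: those of highest tag count per class and list, the highest NOVA2 clusters without overlap, NOVA1 clusters in coding sequence or without overlap, and clusters within 500 nt of a skipped exon. Alternatives covered gene assignment, tag minimum, overlap, class rule, exon distance, flanks and the leading gene. Functions were tested on simulated data. Python 3.11.15, pandas 2.3.3, NumPy 2.4.6, SciPy 1.17.1 and matplotlib 3.10.9 were used.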

Additional observations from a re-analysis of the deposited data

How the results depend on the processing

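Of 56 alternative values over 12 results, 43 stayed within the interval or within 1.5 times the count of the value reported, and 13 moved. With at least 20 tags in both lists, the channel genes held 61 NOVA1 and 386 NOVA2 clusters, the NOVA2 share overlapping NOVA1 was 13.2% (the NOVA1 share 83.6%, against 84.3%) and the NOVA2 YCAY ratio was 2.51. With NOVA2 at 25 tags or more, 294 NOVA2 clusters were left, and the overlapping shares were 66.5% for NOVA1 and 43.5% for NOVA2. With the NOVA2 list reduced to its 9988 highest clusters, as many as NOVA1 has (31 tags or more), these shares were 60.9% and 53.5%. Fewer clusters enter by construction in each case. With spans extended 10 kb downstream the NOVA2 intron share was 92.0%. Within 200 nt of an exon lay 2.94% of NOVA1 and 2.56% of NOVA2 intron clusters, and within 1000 nt 8.21% for NOVA2. Leaving out the gene with most clusters (Kcnd2 for NOVA1, Kcnip4 for NOVA2) moved no value past its limit. No paired analysis was possible because each list gives 1 pooled tag count per cluster, and no library could be left out. A channel gene without a cluster had none of at least 10 tags, which is not an absence of binding.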

Other observations

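Some clusters lay within 10 kb downstream of the annotated ends of channel genes on the same strand, outside the counts of the report. The highest followed Kcnma1: a NOVA2 cluster of 718 tags and a NOVA1 cluster of 151 tags, 2392 nt past its annotated end, both touching A830039N20Rik. Kcna2, without a cluster inside its span, had 2 NOVA1 clusters (up to 13 tags) and 2 NOVA2 clusters (up to 21 tags) there, and Kcnn3 had 2 NOVA2 clusters of up to 16 tags. Kcnb2 and Kcnq3 each had 2 NOVA1 and 4 NOVA2 clusters downstream, Cacna1c had 1 and 3, and Cacna1e had 1 for NOVA2. Whether these lie in longer forms of the channel transcripts was not tested.

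Of 96 other channel genes, which are shorter (median span 27.5 kb), 17 held a NOVA1 and 28 a NOVA2 cluster, and 66 held neither. Hcn3 and Hcn4, which carry a pacemaker current, held 1 NOVA1 cluster each, and 2 and 1 NOVA2 clusters. Kcnk10, a background potassium channel, held 5 NOVA1 and 22 NOVA2 clusters, and Kcna6, a Kv1 gene, held a NOVA2 cluster of 321 tags.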
